A study of Arabidopsis thaliana with 5 samples.

Results

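The small RNAs (smRNAs) of 2 Arabidopsis genotypes were compared by read length. The rdr6 smRNA library was made from plants with the rdr6-11 mutant allele in the Col-0 background, and the Col-0 smRNA library from the wild type of that accession, both from unopened flower buds. These are 2 of the 5 libraries of the series, whose other libraries were not used here. There was 1 library for each genotype, so a difference between them has no replicate check, and every p-value and interval below compares the reads of these libraries and covers counting error only. Reads with 1 location in the TAIR9 genome were counted separately for the lengths 21, 22 and 24 nt in each annotated gene and in each 1 kb bin, on both strands. Counts were scaled by the 6728640 single-location reads of 20 to 25 nt in rdr6 and the 6027443 in Col-0, and all ratios are rdr6 over Col-0. The label could not be checked on RDR6 itself (AT3G49500), whose gene held 0 and 0 reads of 21 nt, 1 and 0 reads of 22 nt, and 4 and 1 reads of 24 nt in rdr6 and Col-0.

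RDR6 is an RNA-dependent RNA polymerase that copies selected transcripts into double-stranded RNA. Dicer-like enzymes then cut that RNA, DCL4 into 21-nt, DCL2 into 22-nt and DCL3 into 24-nt small interfering RNAs (siRNAs). Its best known templates are the TAS transcripts, which are first cut by a microRNA (miR173 for TAS1 and TAS2, miR390 for TAS3, miR828 for TAS4) and give trans-acting siRNAs spaced every 21 nt from the cut. Most 24-nt siRNAs of Arabidopsis come instead from transposons and repeats through RDR2 and DCL3, and most 21-nt microRNAs (miRNAs) come from hairpins through DCL1, without an RNA-dependent RNA polymerase.

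The sequences below are the most frequent 21-nt read positions of 10 genes in Col-0, shown because these loci carried the losses described below. Each is the RefSeq TAIR10.1 genome sequence under the read, 5′ to 3′ on the strand of the siRNA, with T for U and the 5′ base in capitals. The nuclear chromosomes have the same coordinates in TAIR9. The reads may differ from it by the few mismatches that the alignment allowed.
TAS1a: Atgatatttgtagtaatggcg
TAS1b: Aatgggagatgtccggaatga
TAS1c: Ttctttagacgacttgaaaat
TAS2: Ataagactgaaacatatatgt
TAS3a: Tgactcgaacgaattagaggt
TAS3b: Tcttgaccttgtaagaccttt
AT1G63130: Gtagatcacaacaccaggctc
AFB3: Ggttgggactagaaaagatgc
AT5G39370: Gttgggataagaagtcgggtc
CHX18: Gctagagcaagtagaatccaa

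The TAS1a siRNA at chr2:11721923-11721943 on the minus strand, in the exon of that noncoding gene, had 149 reads in rdr6 and 7330 reads in Col-0. The TAS3a siRNA at chr3:5862310-5862330 on the minus strand, antisense to its gene, had 9 reads in rdr6 and 5369 in Col-0. The TAS2 siRNA at chr2:16539856-16539876 had 8 and 1503 reads, and the TAS1c siRNA at chr2:16537712-16537732 had 13 and 1455 reads, in rdr6 and Col-0. Both lie on the plus strand, antisense to their genes. The AT1G63130 siRNA lies at chr1:23413610-23413630 on the minus strand, inside the coding sequence, and had 0 reads in rdr6 and 100 in Col-0. The AFB3 siRNA at chr1:4368904-4368924, also in coding sequence on the minus strand, had 1 read in rdr6 and 153 in Col-0. At each of these positions the rdr6 library held far fewer reads than the Col-0 library.

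Reads of 21 nt made up a smaller share of the rdr6 library than of the Col-0 library, while the shares of 22 and 24 nt were close. The 21-nt share was 2.71% in rdr6 (95% Wilson interval 2.70 to 2.73%) and 4.24% in Col-0 (4.22 to 4.25%), a log2 ratio of −0.64. The 22-nt share was 4.91% (4.89 to 4.93%) in rdr6 and 5.12% (5.10 to 5.14%) in Col-0, a log2 ratio of −0.06. The 24-nt share was 74.8% in rdr6 and 73.1% in Col-0, a log2 ratio of 0.03 with an interval that rounds to the same value. The 20-nt reads, at 1.04% in rdr6 and 1.61% in Col-0, had a log2 ratio of −0.62, close to that of 21 nt. The spread between libraries of 1 genotype is not known here, so whether the smaller of these differences exceed it cannot be told. Among all mapped reads, 3.24% in rdr6 and 7.27% in Col-0 were outside 20 to 25 nt, and the part of this difference in the results was not tested.

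**Figure D1:**
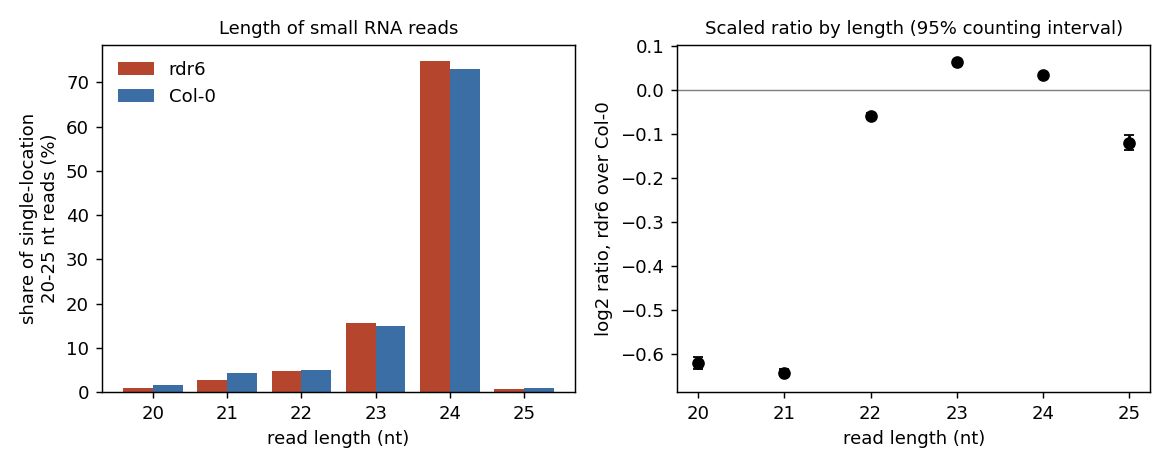
Left, share (%) of single-location reads of 20 to 25 nt by read length (nt) in the rdr6 library (red bars, left of each pair) and the Col-0 library (blue bars). Right, log2 of the scaled ratio of rdr6 over Col-0 by length, with 95% counting intervals: 20 and 21 nt lie at −0.62 and −0.64 and all other lengths between −0.12 and 0.06.

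The 21-nt difference came from several kinds of locus, with the TAS genes first. In the scaled counts, the TAS genes accounted for 42.9% of the 21-nt difference. They held 436 reads of 21 nt in rdr6 and 39729 in Col-0, or 0.239% and 15.6% of the single-location 21-nt reads. Annotated miRNA genes accounted for 15.96% (31530 reads in rdr6 and 42888 in Col-0, log2 −0.60), protein-coding genes for 14.9% (27050 and 37928 reads, log2 −0.65) and sequence with no annotated gene for 17.7% (96649 and 102862 reads, log2 −0.25). With TAS and miRNA genes left out, the 21-nt share was 2.26% in rdr6 and 2.94% in Col-0. The mitochondrial genome had 250 reads of 21 nt in rdr6 and 767 in Col-0 (log2 −1.78), and the chloroplast genome 967 and 1609 (log2 −0.89), so that 21-nt reads of organelle origin were also fewer in the rdr6 library. Reads from tRNA, rRNA, snoRNA or snRNA genes of the nucleus numbered 249 and 449 at this length (log2 −1.01). The part of the organelle and structural RNA reads in the 21-nt result was not tested.

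A gene or bin was called lower or higher in rdr6 where the scaled ratio was at least 2-fold and the one-sided Audic–Claverie p for the reads of the 2 libraries was under 0.001, among features with at least 10 reads of that length in both libraries together. A library with 0 reads was given 3 counts in the ratio, which is then a bound. Medians use these bounds. At 21 nt, 143 of 1916 genes were lower in rdr6 (7.46%) and 2 were higher (0.104%). At 22 nt, 71 of 2422 genes were lower (2.93%) and 13 higher (0.537%). At 24 nt, 93 of 6346 genes were lower (1.47%) and 84 higher (1.32%). The calls at 21 nt thus went nearly all one way, and those at 24 nt went both ways. The median log2 ratio of all genes tested was −0.38 at 21 nt, −0.08 at 22 nt and 0.03 at 24 nt. A scale by the median ratio of 882 genes differed from the main scale at 21 nt by a log2 of −0.26, less than this shift. With that scale, 117 genes were lower and 6 higher at 21 nt. Overlapping genes share reads, and the lower genes formed 129 separate loci at 21 nt, 61 at 22 nt and 85 at 24 nt.

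**Figure D2:**
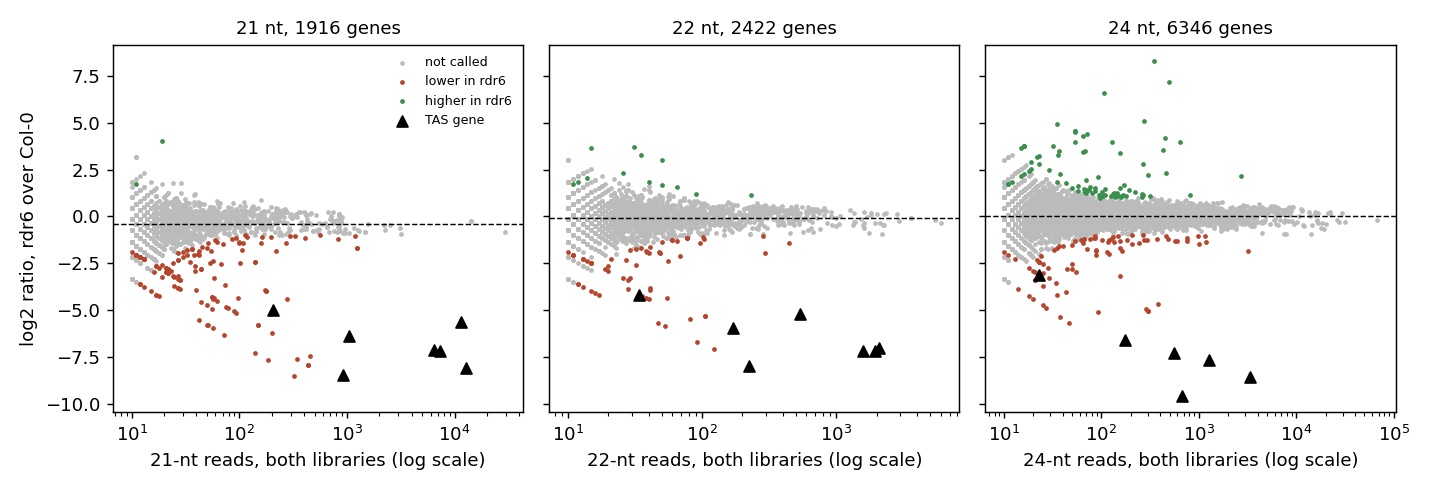
Log2 of the scaled ratio of rdr6 over Col-0 for every gene tested (points) against its reads in both libraries together (log scale), for 21, 22 and 24 nt, with genes lower in rdr6 in red, genes higher in green, TAS genes as black triangles and the median of all genes as a dashed line. Called genes lie almost only below the median at 21 nt (143 lower, 2 higher) and on both sides at 24 nt (93 lower, 84 higher). Most TAS genes lie near the bottom at every length, though TAS3b, with 0 reads in rdr6, is drawn at −3.10 at 24 nt.

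The calls at different lengths overlapped in part. Of the 71 genes lower at 22 nt, 69.0% were also lower at 21 nt, which is 34.3% of the 143 genes lower at 21 nt. Of the 93 genes lower at 24 nt, 22.6% were also lower at 21 nt, which is 14.7% of the 143. Many genes lacked the reads for a call at the other length: 67 of the 143 were tested at 24 nt, of which 61 had a ratio below 1, and 41 of the 93 were tested at 21 nt, of which 39 had a ratio below 1. With these limits, 92 genes were called lower at 21 nt alone, 30 at 21 and 22 nt, 19 at all 3 lengths and 69 at 24 nt alone. No gene was lower at 21 nt and higher at 24 nt. By annotation, 94 of 786 protein-coding genes tested (12.0%) and 7 of 694 pseudogenes (1.01%) were lower at 21 nt, beside 7.46% of all genes tested. Other kinds were lower as well, with 15 of 142 lncRNA genes (10.6%), 10 of 129 miRNA genes (7.75%) and 9 of 21 ncRNA genes (42.9%).

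The TAS genes lost reads of every length. Of the 8 TAS genes, 7 had enough reads at 21 and at 22 nt and 6 at 24 nt, and these were lower in rdr6, with median log2 ratios of −7.11, −7.01 and −7.45 beside −0.38, −0.08 and 0.03 for all genes tested. TAS4 (AT3G25795), the target of miR828, had 0 reads of 21 and 22 nt in both libraries and was not tested. This list and the others below were chosen with earlier results of these data known. Where a listed gene reached the minimum of 10 reads through its Col-0 reads, as most did, the minimum itself favored the direction lower in rdr6, so the counts of called members describe these lists and are no support of their own.

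TAS3a (AT3G17185, chr3:5861491-5862437), whose siRNAs target auxin response factors, had 53 reads of 21 nt in rdr6 and 12696 in Col-0, the lowest log2 ratio of the 5 TAS genes with over 1000 such reads in Col-0, at −8.06 (95% interval −8.48 to −7.67). It had 12 reads of 22 nt in rdr6 and 1574 in Col-0, and 7 reads of 24 nt in rdr6 and 1267 in Col-0. In Col-0, 79.8% of its 21-nt reads and 98.3% of its 24-nt reads were antisense to the gene, so that its 24-nt reads came almost only from the antisense strand. TAS3b (AT5G49615, chr5:20134200-20134786) had 3 reads of 21 nt in rdr6 and 923 in Col-0, a log2 ratio of −8.42 (−10.7 to −6.87). The third TAS3 gene, AT5G57735, had 7 reads in rdr6 and 198 in Col-0, a log2 ratio of −4.98 (−6.31 to −3.91).

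The miR173 targets had log2 ratios between those of the third TAS3 gene and TAS3a. TAS1a (AT2G27400, chr2:11721539-11722468) kept the most reads in rdr6, with 251 reads of 21 nt in rdr6 and 11138 in Col-0, a log2 ratio of −5.63 (−5.82 to −5.45). TAS1b (AT1G50055, chr1:18549204-18550042) had 14 reads in rdr6 and 1039 in Col-0, a log2 ratio of −6.37 (−7.25 to −5.62). TAS1c (AT2G39675, chr2:16537288-16538277) had 52 reads in rdr6 and 6421 in Col-0, a log2 ratio of −7.11 (−7.53 to −6.71). TAS2 (AT2G39681, chr2:16539384-16540417), which lies close to TAS1c, had 56 reads in rdr6 and 7314 in Col-0, a log2 ratio of −7.19 (−7.59 to −6.81). The counting intervals of TAS1a lie above those of TAS1c, TAS2 and TAS3a, while those of TAS1c and TAS2 overlap.

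The lengths did not fall by the same factor in every TAS gene. In TAS1c, 24-nt reads took 26.7% of the 20 to 25 nt reads in Col-0, with 10 reads in rdr6 and 3357 in Col-0 (log2 −8.55, −9.61 to −7.67), a lower ratio than that of its 21-nt reads. In TAS2 there was 1 read of 24 nt in rdr6 and 668 in Col-0, a log2 ratio of −9.54 (−14.8 to −7.06). In TAS1a there were 4 reads of 24 nt in rdr6 and 545 in Col-0, a log2 ratio of −7.25 (−9.13 to −5.88), whose interval also lies below that of its 21-nt reads. TAS1a differs from the other TAS1 and TAS2 genes in its make-up in Col-0, where 89.4% of its reads were 21 nt long, against 51.0% in TAS1c and 70.2% in TAS2.

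The spacing of the remaining reads was also compared. Each 21-nt read was placed in 1 of 21 registers along its gene, with the strands offset by the 2-nt overhang that a Dicer leaves, so that an even spread would put 4.76% in each. In TAS1a, 92.9% of 21-nt reads in Col-0 lay in 1 register, and 88.0% of the rdr6 reads (221 of 251) lay in that same register. In TAS2 the leading Col-0 register held 27 of 56 reads in rdr6 (48.2%) and 52.3% of the reads in Col-0. In TAS1c it held 24 of 52 reads in rdr6 (46.2%) and 34.6% in Col-0. So most of the reads left in rdr6 lay in the leading Col-0 register in TAS1a, and fewer than 50% did in TAS2 and TAS1c, though above the even spread of 4.76%. In TAS3a it held 11 of 53 reads in rdr6 (20.8%) and 46.1% in Col-0. These shares partly rest on single abundant siRNAs, since the most frequent sequence of TAS1a made up 59.7% of its 21-nt reads in Col-0.

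**Figure D3:**
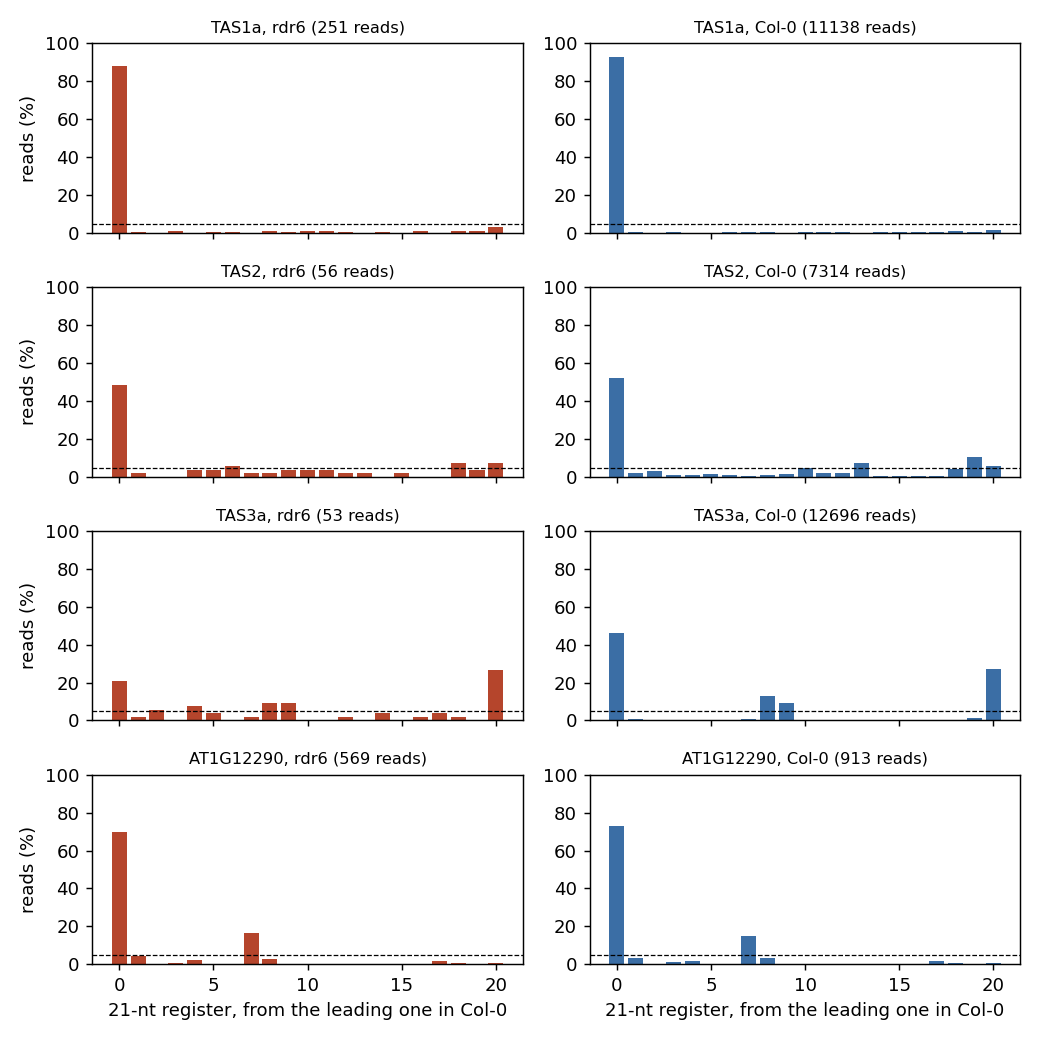
Share (%) of 21-nt reads in each of 21 registers, numbered from the leading register of Col-0 at 0, for TAS1a, TAS2, TAS3a and AT1G12290 (rows) in rdr6 (left, red) and Col-0 (right, blue), with the even spread of 4.76% as a dashed line. The leading register holds 88.0% of the TAS1a reads in rdr6 and 92.9% in Col-0, while TAS3a has 20.8% in rdr6 and 46.1% in Col-0.

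Of the miRNAs that cut the TAS transcripts, miR173 and miR390 were present in both libraries. Their mature sequences, from the RefSeq annotation of TAIR10.1 with T for U, are shown with the seed (bases 2 to 8) in capitals, since it marks the part that pairs first with a target. MiR161 is included because it targets the pentatricopeptide repeat genes described next, and its overlapping forms come from the same hairpin.
miR173-5p: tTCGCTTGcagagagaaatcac
miR390a-5p: aAGCTCAGgagggatagcgcc
miR161.1: tGAAAGTGactacatcggggt
miR161.2: tCAATGCAttgaaagtgacta

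Reads with exactly these ends, at any number of locations, numbered 2802 in rdr6 and 3193 in Col-0 for the 22-nt miR173-5p, a log2 ratio of −0.35 (−0.42 to −0.27). For miR390a-5p they numbered 8908 in rdr6 and 9595 in Col-0, a log2 ratio of −0.27 (−0.31 to −0.22). MiR161.2 had 2822 and 3281 reads (log2 −0.38) and miR161.1 had 730 and 1036 reads (log2 −0.66) in rdr6 and Col-0. MiR173-5p and miR390a-5p thus differed by far less than the siRNAs of their targets, and miR828 had 0 reads in both libraries. Over the 75 mature 21-nt miRNAs with at least 50 such reads, the median log2 ratio was −0.36, and 62 were below 0. That median is near the −0.38 of all genes tested at 21 nt. Of 129 miRNA genes tested at 21 nt, 10 were lower in rdr6, near the background of 7.46%, and none was higher.

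Pentatricopeptide repeat (PPR) genes encode RNA-binding proteins of mitochondria and chloroplasts, and a group of them on chromosome 1 is targeted by miR161, miR400 and TAS2 siRNAs. Of the 12 listed, 6 had enough single-location reads at 21 nt, all through Col-0, and these were lower in rdr6, beside 7.46% of all genes tested. The other 6 were not tested with single-location reads. At 22 nt 4 were tested and lower (2.93% of all genes), and at 24 nt 2 (1.47%), again through their Col-0 reads. AT1G63130 (chr1:23412518-23415155) had 1 read of 21 nt in rdr6 and 319 in Col-0, a log2 ratio of −8.48 (−13.8 to −5.99). AT1G63150 had 3 reads in rdr6 and 197 in Col-0 (log2 −6.20, −8.49 to −4.63), and AT1G63080 had 3 in rdr6 and 147 in Col-0 (log2 −5.77, −8.07 to −4.20). AT1G12775, which lies away from this cluster, had 1 read in rdr6 and 41 in Col-0 (log2 −5.52, −10.9 to −2.96). RPF3 and RPF2, which act in the processing of mitochondrial transcripts, had 0 reads in rdr6 and 22 and 11 in Col-0, which is at least 8.19-fold and at least 4.09-fold lower. Outside the list, and named after their values were seen, the PPR genes AT5G16640 and AT1G62914 had 1 read each in rdr6 and 56 and 50 in Col-0. In AT1G63130, 44.8% of the 21-nt reads in Col-0 were antisense to the gene, so that both strands of the transcript were represented.

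Most reads of these near-identical PPR genes have several locations, and the single-location counts leave them out. With such reads divided equally among their locations, 10 of 12 PPR genes were lower at 21 nt, 12 of 12 at 22 nt and 10 of 10 at 24 nt. Among all genes tested with divided reads, 180 of 3687 were lower at 21 nt, 81 of 4490 at 22 nt and 94 of 8291 at 24 nt. The PPR genes share many of these reads, so they are not separate results. AT1G62590 then had 685.9 reads of 21 nt in rdr6 and 1130.5 in Col-0, which was not lower by the 2-fold rule. Of these, 682.2 in rdr6 and 794.1 in Col-0 were shared with MIR161, and the reads that remained were 3.7 and 336.4. Farther along chromosome 1, AT1G63330 and AT1G63400 also shared most of their rdr6 reads with MIR161. Outside it they had 3.7 and 3.4 reads in rdr6 and 333.8 and 503 in Col-0.

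The auxin receptor genes TIR1, GRH1 (AFB1), AFB2 and AFB3 encode F-box proteins targeted by miR393. At 21 nt 2 of these 4 had enough reads, through Col-0, and these were lower in rdr6, beside 7.46% of all genes tested. AFB3 (AT1G12820, chr1:4368760-4371298) had 2 reads of 21 nt in rdr6 and 345 in Col-0, a log2 ratio of −7.59 (−10.6 to −5.73). AFB2 (AT3G26810) had 0 in rdr6 and 94 in Col-0, at least 35.0-fold lower. At 22 nt AFB3 had 2 reads in rdr6 and 80 in Col-0, and AFB2 had 1 in rdr6 and 15 in Col-0, and both were lower. TIR1 had 0 and 3 reads of 21 nt and GRH1 had 0 and 1, too few for a test. Only 8.70% of the 21-nt AFB3 reads in Col-0 were antisense, and 48.7% lay in 1 register. That share rests largely on a single siRNA, since the most frequent sequence made up 40.3% of these reads. Of the distinct sequences, 25% lay in that register.

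ARF2, ETT (ARF3) and ARF4 are auxin response factors, the targets of TAS3 siRNAs. They reached the read minimum at 21 nt through Col-0 and were called lower in rdr6, beside 7.46% of all genes tested. ARF4 (AT5G60450) had 0 reads in rdr6 and 89 in Col-0, at least 33.1-fold lower, and 44.9% of the Col-0 reads were antisense. ARF2 had 0 and 13 reads, at least 4.84-fold lower, and ETT had 1 and 11 reads (log2 −3.62, −9.05 to −0.84) in rdr6 and Col-0. ETT was no longer called with scaling by all mapped reads or by the median ratio.

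Among 11 genes of the silencing machinery, 3 had enough 21-nt reads, through Col-0, and 2 of these were lower in rdr6, beside 7.46% of all genes tested. AGO1, the main Argonaute of the miRNA pathway and itself targeted by miR168, had 3 reads in rdr6 and 55 in Col-0 (log2 −4.36, −6.68 to −2.73), of which 58.2% were antisense in Col-0. DCL1, targeted by miR162, had 6 reads in rdr6 and 68 in Col-0 (log2 −3.66, −5.16 to −2.47). Of these DCL1 reads, 3 in rdr6 and 1 in Col-0 were shared with MIR838, and the reads that remained were 3 and 67. AGO1 and DCL1 were also lower at 22 nt, with 1 read in rdr6 and 14 in Col-0 for AGO1 and 0 in rdr6 and 19 in Col-0 for DCL1. AGO2, targeted by miR403, had 3 and 11 reads and was not called. The genes of this list had 23 reads of 24 nt in rdr6 and 18 in Col-0, and none was tested at that length.

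Disease resistance genes of the coiled-coil class (CC-NB-LRR), of which several are targeted by miR472, had few single-location 21-nt reads. AT5G43740 had 0 reads in rdr6 and 40 in Col-0, at least 14.9-fold lower. AT1G12290 had 569 reads in rdr6 and 913 in Col-0 (log2 −0.84), and was not called. All 21-nt reads of AT1G12290 were sense in both libraries, and its most frequent read, at chr1:4182266-4182286 on the minus strand, was the annotated miR472-5p with 396 reads in rdr6 and 668 in Col-0. So the 2 genes with enough reads differ, and whether the strands or the miRNA read have a part in this was not tested. With reads of several locations divided, 3 genes of the list were tested at 21 nt and 2 were lower, beside 180 of 3687 of all genes. In the RPP4/RPP5/SNC1 cluster of TIR-class resistance genes, 0 of 6 genes tested at 24 nt were called. Of all genes tested at that length, only 1.47% were lower and 1.32% higher, so 6 genes are too few to differ from this. The 8 genes of the cluster held 562 reads of 24 nt in rdr6 and 513 in Col-0. The 4 MYB genes targeted by miR828 and TAS4 had 0 reads of 21 nt in both libraries.

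Another 8 loci were listed because the study named them. It reported on them with these same libraries, so their direction here is not independent evidence. Of these, the study gives AT5G39370 as previously identified. At 21, 22 and 24 nt, the same 4 of them had enough reads, through Col-0, and these were lower at each length, beside 7.46%, 2.93% and 1.47% of all genes tested. AT5G39370, a lectin family gene (chr5:15757717-15758109), had 0 reads of 21 nt in rdr6 and 458 in Col-0, at least 170-fold lower. It had 1 read of 24 nt in rdr6 and 37 in Col-0. The noncoding gene AT5G05905 lies beside it without overlap (chr5:15757451-15757709) and had 0 reads of 21 nt in rdr6 and 148 in Col-0. CHX18 (AT5G41610, chr5:16638302-16641933), a cation/proton exchanger gene, had 2 reads of 21 nt in rdr6 and 436 in Col-0 (log2 −7.93, −11.0 to −6.07), and the gene AT5G41612 on the other strand holds the same reads. AT3G19890, annotated as an F-box gene, had 0 reads in rdr6 and 78 in Col-0, at least 29.0-fold lower. The other 4 loci had 0 to 2 single-location reads of 21 nt in rdr6 and 0 to 5 in Col-0 and were not tested with these. In rdr6 and Col-0, AT1G20370 had 0 and 5 such reads, AT5G02370 0 and 0, AT1G30680 1 and 0, and AT2G05790 2 and 3. At 24 nt, with divided reads, AT5G02370 had 7 and 2.5, AT1G30680 2 and 1, and AT2G05790 3 and 2. These 3 loci thus had too few reads to show a loss, and the divided reads of AT1G20370 are given below. IRT1, the main iron transporter of roots, had 0 reads in rdr6 and 75 in Col-0, at least 27.9-fold lower. With reads of several locations divided, IRT1 had 37 reads of 21 nt in rdr6 and 107 in Col-0 and was still lower, whereas its 22-nt reads were 57.5 in rdr6 and 48.5 in Col-0 (log2 0.12). All of these rdr6 reads were shared with MIR4240. Most reads of AT1G20370 also had several locations. Divided, they numbered 6.5 in rdr6 and 28 in Col-0 at 21 nt, and 90 and 203 at 24 nt. With divided reads, 5 of the 8 loci were tested at each length. At 21 and at 24 nt 5 were lower, and at 22 nt 3, beside 180 of 3687, 94 of 8291 and 81 of 4490 of all genes. In CHX18 and AT5G39370 the leading register held 14.7% and 20.96% of the 21-nt reads in Col-0, so their siRNAs were less concentrated in 1 register than those of TAS1a.

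**Figure D4:**
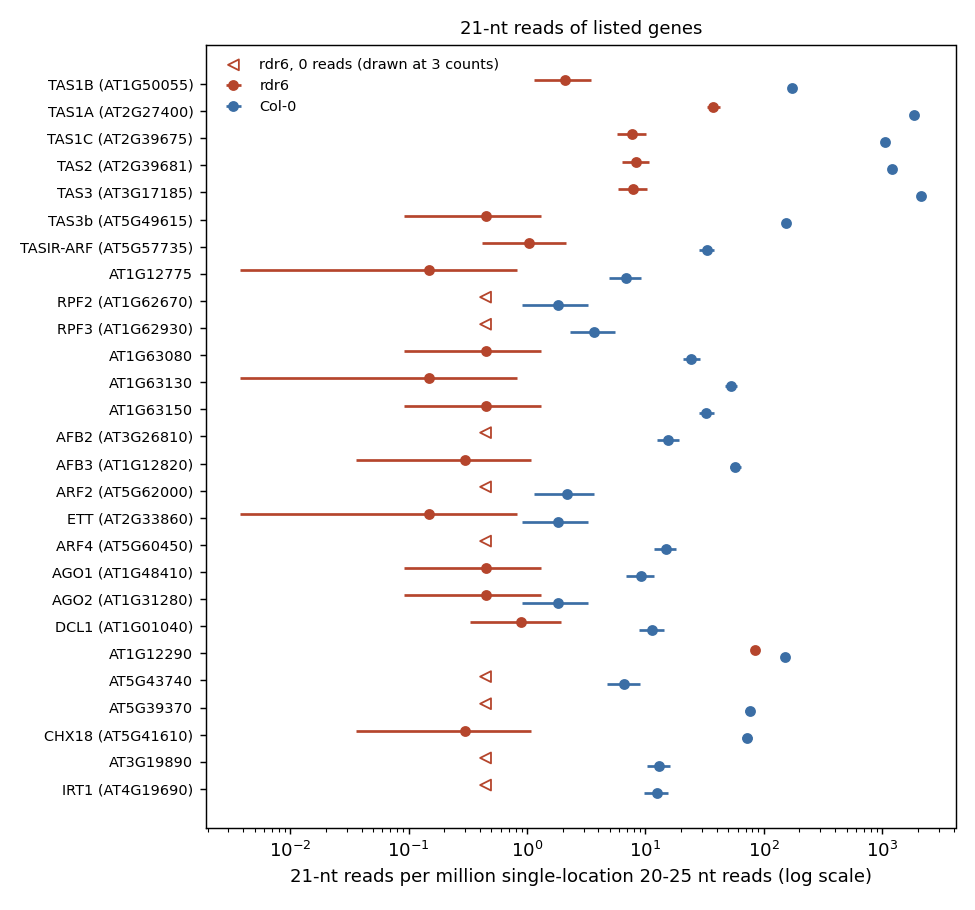
Scaled 21-nt reads (log scale, reads-per-million of the reads of 20 to 25 nt with 1 location) for the listed genes with enough reads, rdr6 in red above Col-0 in blue for each gene, with 95% counting intervals and hollow triangles where rdr6 had 0 reads (drawn at 3 counts). Genes of the RPP4/RPP5/SNC1 cluster and the annotated miRNA genes are not drawn. The rdr6 value lies below the Col-0 value in every row drawn, by least for AT1G12290 (569 and 913 reads).

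Some other genes among the 143 lower at 21 nt encode well-known proteins. Those in this paragraph were chosen after their values were seen, so they say nothing of how often genes of their kind were lower. The HAM genes encode GRAS transcription factors targeted by miR171: HAM1 had 5 reads of 21 nt in rdr6 and 92 in Col-0, HAM3 had 1 and 49, and HAM2 had 1 and 16. The TCP factors targeted by miR319 had as few, with 2 reads in rdr6 and 54 in Col-0 in TCP4, 3 and 53 in TCP3, 0 and 27 in TCP2, and 0 and 21 in TCP10. AP2, a floral homeotic gene targeted by miR172, had 0 reads in rdr6 and 57 in Col-0. The auxin response factors ARF10 (3 and 24), ARF6 (0 and 17) and ARF8 (0 and 12), targets of miR160 and miR167, followed the same order. Each of these genes had fewer than 100 reads in Col-0. Larger counts were found in AT3G23690, a bHLH gene, with 1 read in rdr6 and 183 in Col-0 (log2 −7.67), and in GTE7, a bromodomain gene, with 14 and 264 (log2 −4.40).

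The opposite direction was rare at 21 nt. AT5G40020 had 11 reads in rdr6 and 0 in Col-0, at least 3.28-fold higher, and AT4G09500 had 18 in rdr6 and 1 in Col-0 (log2 4.01, 1.35 to 9.39). Both were higher at 24 nt as well. At 22 nt the 5 higher genes with the largest ratios and at least 50 reads were 3 pseudogenes and 2 protein-coding genes. AT2G19146, annotated as reverse transcriptase-like, had 45 reads of 22 nt in rdr6 and 5 in Col-0 (log2 3.01, 1.68 to 4.70), and AT3G44780, a cysteine proteinase family gene, had 164 and 66 (log2 1.15, 0.73 to 1.59). The pseudogenes AT3G28400, AT1G36445 and AT1G36440 had 39 and 11, 50 and 15, and 65 and 25 reads in rdr6 and Col-0. AT2G19146 was also higher at 24 nt, with 251 reads in rdr6 and 49 in Col-0, while the others had 24-nt log2 ratios of 0.38 to 0.58 and were not called at that length.

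At 24 nt, the 5 lower genes with the lowest ratios and at least 50 reads were all TAS genes. Next to them, and chosen after their values were seen, AT1G70080, annotated as a terpenoid cyclase family gene, had 0 reads in rdr6 and 93 in Col-0. MRD1 (AT1G53480, overlapping HEI10) had 10 reads in rdr6 and 292 in Col-0 (log2 −5.03), and the noncoding gene AT3G03945 had 16 and 361 (log2 −4.65). The most strongly called genes that were higher at 24 nt had 71 to 488 reads in rdr6 and 0 to 7 in Col-0. AT5G40020, a thaumatin family gene at chr5:16022579-16024316, had 344 reads in rdr6 and 1 in Col-0, a log2 ratio of 8.27 (5.78 to 13.6). AT3G22955, a pseudogene at chr3:8138497-8138965, had 488 in rdr6 and 3 in Col-0 (log2 7.19, 5.63 to 9.47). AT4G09500, a glycosyltransferase family gene, had 269 and 7 (log2 5.11, 4.04 to 6.43), MUB5, a membrane-anchored ubiquitin-fold protein gene, had 106 and 1 (log2 6.57, 4.06 to 11.9), and AT3G24700, an F-box gene, had 71 and 0, at least 21.2-fold higher. These loci had few 21-nt reads in either library, between 3 and 18 in rdr6.

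The 24-nt siRNAs that differed most were compared by sequence, 1 from the bin that lost the most and 3 from loci that gained, with the 5′ base in capitals.
bin of chr5:2656001-2657000: Agtgacggatcacctaagttcttg
bin of chr2:11010001-11011000: Aggaacggctctgcatttagacat
AT3G22955: Agagcttgccatattgtagagaat
AT5G40020: Ggagtgtaatggattaatcggaaa

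The first lies at chr5:2656169-2656192 on the plus strand and had 1 read in rdr6 and 826 in Col-0. The second lies at chr2:11010973-11010996 on the minus strand and had 327 reads in rdr6 and 1 in Col-0. The AT3G22955 siRNA (chr3:8138693-8138716, minus strand) had 73 and 0 reads, and the AT5G40020 siRNA (chr5:16023694-16023717, minus strand, coding sequence) had 56 and 0 reads, in rdr6 and Col-0.

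Counts in 1 kb bins, which also cover sequence outside genes, gave the same contrast between lengths. At 21 nt, 196 of 4419 bins were lower in rdr6 (4.44%) and 11 were higher (0.249%). At 22 nt, 92 of 6454 bins were lower (1.43%) and 29 higher (0.449%). At 24 nt, 248 of 26072 bins were lower (0.951%) and 249 higher (0.955%), nearly equal numbers. The split at 24 nt depends on the scale: by all mapped reads, 204 bins were lower and 334 higher. At 22 nt that scale gave 82 lower and 42 higher bins. The median log2 ratio of the bins tested was −0.21 at 21 nt, −0.01 at 22 nt and 0.04 at 24 nt. With the median ratio as the scale, 153 bins were lower and 13 higher at 21 nt.

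Bins that were lower at 21 or at 24 nt overlapped protein-coding genes more often, and lay in low-gene windows less often, than the bins tested at that length, as a description with no test. Of the 187 nuclear bins lower at 21 nt, 65.2% overlapped a protein-coding gene, against 35.4% of all nuclear bins tested at that length. Of these 187, 11.8% lay in the 20 of 121 windows of 1 Mb with under 50% of the median number of protein-coding genes (low-gene windows), against 28.9% of those tested. Among the 244 nuclear bins lower at 24 nt, 52.5% overlapped a protein-coding gene and 7.79% lay in low-gene windows, and among the 249 higher bins 41.8% and 35.3% did, against 25.8% and 47.9% of all nuclear bins tested. In the mitochondrial genome 7 of 16 bins tested were lower at 21 nt (median log2 −2.14), beside 4.44% of all bins tested at that length. In the chloroplast genome 2 of 26 were (median log2 −0.41), too few to differ from that share.

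In 111 of the 196 bins lower at 21 nt, Col-0 held more 21-nt than 24-nt reads. The 103 of these outside TAS genes had 1811 reads of 21 nt in rdr6 and 8564 in Col-0 (log2 −2.40), 414 and 1934 reads of 22 nt (log2 −2.38), and 358 and 869 reads of 24 nt (log2 −1.44). All 3 lengths were lower there in sum, with the smallest difference at 24 nt. Of the 196 bins, 115 had enough 24-nt reads for a test, 105 of these had a ratio below 1 at 24 nt, and 29 were called.

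Most bins that changed at 24 nt had too few 21-nt reads for a test. Of the 248 bins lower at 24 nt, 57 had enough 21-nt reads, of which 55 had a ratio below 1 at 21 nt and 29 were called. In all, 211 of the 248 bins were called lower at 24 nt alone. Over the 211 bins, the 24-nt reads numbered 7090 in rdr6 and 20091 in Col-0 (log2 −1.66), and the 21-nt reads 254 and 650 (log2 −1.51). Of the 249 bins higher at 24 nt, 228 were higher at no other length, with 24304 reads of 24 nt in rdr6 and 6231 in Col-0 (log2 1.80) and 493 and 244 reads of 21 nt (log2 0.86). No bin was lower at 21 nt and higher at 24 nt. The calls at all lengths chose these bins, so the sums are a description and not a test.

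**Figure D5:**
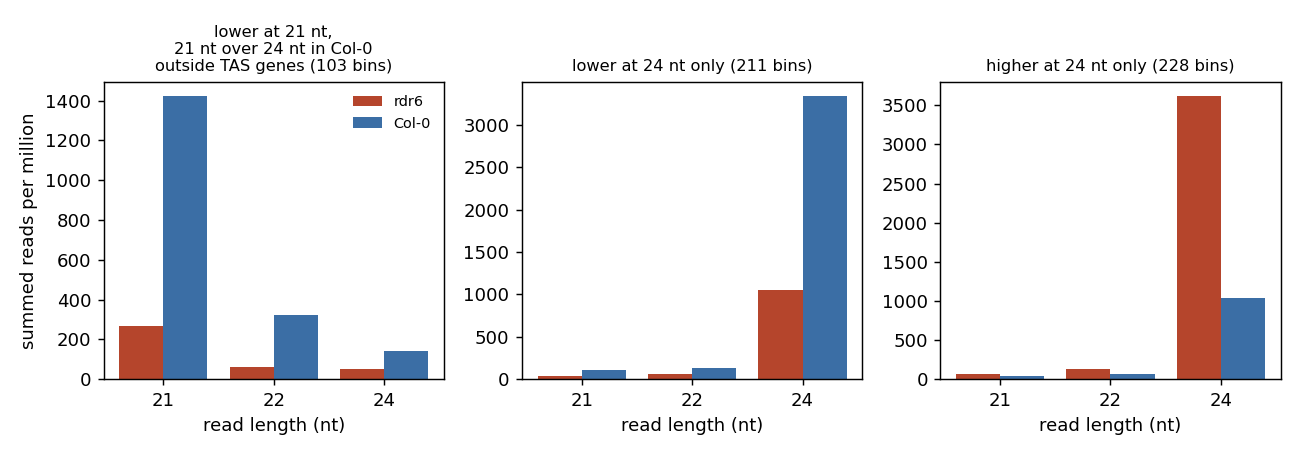
Summed counts (reads-per-million of the reads of 20 to 25 nt with 1 location) by read length (nt), in 3 sets of 1 kb bins: lower at 21 nt, with more 21-nt than 24-nt reads in Col-0, outside TAS genes (103 bins), lower at 24 nt only (211 bins) and higher at 24 nt only (228 bins), rdr6 in red left of Col-0 in blue. The length that chose each set shows the largest bars, and the other lengths differ in the same direction in each set.

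By ratio, the largest 24-nt change among called bins with at least 50 reads was a loss from the bin chr5:2656001-2657000, which holds no annotated gene and lies between AT5G08250 (131 bases away) and AT5G08260 (54 bases away). It had 3 reads of 24 nt in rdr6 and 2738 in Col-0, a log2 ratio of −9.99 (−12.3 to −8.44), and 0 reads in rdr6 against 31 in Col-0 at 21 nt and 0 against 35 at 22 nt. Its Col-0 reads came from both strands, 1519 from the plus and 1219 from the minus strand. The largest gain was in chr2:11010001-11011000, 140 bases from AT2G25800, with 718 reads of 24 nt in rdr6 and 4 in Col-0 (log2 7.33, 5.97 to 9.21), of which 645 of the rdr6 reads were on the minus strand. The bin chr3:23130001-23131000, also outside genes, had 344 reads in rdr6 and 3 in Col-0 (log2 6.68, 5.12 to 8.97). In 28 of the 248 lower bins the rdr6 library held 0 reads of 24 nt, and in 24 of the 249 higher bins the Col-0 library held 0. Outside TAS genes, 30 bins were lower by at least 16-fold, with 94 reads in rdr6 and 6067 in Col-0, and 35 were higher by at least 16-fold, with 5379 in rdr6 and 89 in Col-0. Changes of this size therefore occurred in both directions at 24 nt, and with 1 library each, whatever else differed between the libraries cannot be told apart from the genotype.

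The few bins that were higher at 21 or 22 nt were mostly higher at 24 nt as well. Of the 11 higher at 21 nt, 9 were higher at 24 nt, and of the 29 higher at 22 nt, 18 were. The bin chr4:5735001-5736000, with no annotated gene, had 52 reads of 21 nt in rdr6 and 16 in Col-0 (log2 1.54, 0.71 to 2.45) and 2022 reads of 24 nt in rdr6 and 839 in Col-0 (log2 1.11). The bin chr1:26635001-26636000 had 53 reads of 22 nt in rdr6 and 7 in Col-0 (log2 2.76, 1.62 to 4.14) and 1094 and 114 reads of 24 nt (log2 3.10). At these places the 24-nt reads outnumbered the shorter ones in both libraries.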

How the data were processed

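Small RNAs of unopened flower buds were sequenced on an Illumina Genome Analyzer II from rdr6 and Col-0 plants (1 library each, so samples were compared by their labels and no replicate spread exists). According to the methods of the study, the authors trimmed 3′ adapters with cross_match, kept untrimmed reads, collapsed identical reads, and aligned them to TAIR 9 with cross_match, allowing up to a small share of mismatches and keeping every location. The deposited read counts are raw counts, the number of reads of each collapsed sequence, with its length and number of locations, and they were not normalized by the authors. The libraries held 11123274 (rdr6) and 10674768 (Col-0) mapped reads.

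Here, sequences with 1 location were kept (62.5% of the mapped 20 to 25 nt reads in rdr6 and 60.9% in Col-0). A read counted for a gene when its middle base lay in the gene, on either strand, and for the 1 kb bin of its leftmost base. Genes came from the RefSeq annotation of TAIR10.1, whose nuclear and chloroplast sequences have TAIR9 coordinates: 0 read positions lay beyond it. Mitochondrial reads were counted in bins only. The Audic–Claverie probability, in the direction of the ratio and not adjusted for the number of features, follows the study's rule for bins. It was tested on simulated counts that held counting error only. That test cannot show how the rule treats other spread between libraries, because none was simulated. Intervals are exact binomial (conditional on the sum of both libraries) for ratios and Wilson for shares. Scripts used Python 3.11.15, numpy 2.4.6, scipy 1.17.1 and pandas 2.3.3. PCR copies were not marked by molecular identifiers. Genes and bins named are taken from the lists and from the 5 strongest called genes and 3 strongest called bins in each direction and length, unless said otherwise. The strongest had at least 50 reads in both libraries together and were ranked by ratio, counts under 3 taken as 3. Counts for a list cover all its members, named or not. Members and lists were chosen with earlier results of these data known. The alternatives were a 4-fold rule, no read minimum, other scales, collapsed sequences instead of reads, divided multi-location reads, reads wholly inside genes and bins shifted by 500 bases.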

Additional observations from a re-analysis of the deposited data

How the results depend on the processing

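No paired analysis was possible because each genotype has 1 library. A 4-fold rule, which by construction calls fewer features, left 1 gene higher at 21 nt, 47 genes lower and 6 higher at 22 nt, 44 lower and 40 higher at 24 nt, 108 bins lower and 6 higher at 21 nt, 46 lower and 11 higher at 22 nt, and 116 lower and 104 higher at 24 nt. Counting collapsed sequences instead of reads, which leaves smaller counts, gave 0 genes higher at 21 nt, 45 lower and 6 higher at 22 nt, 42 lower and 35 higher at 24 nt, and in bins 111 lower and 3 higher at 21 nt, 47 lower and 5 higher at 22 nt, and 99 lower and 100 higher at 24 nt. With the median ratio as the scale 6 genes were higher at 21 nt, and with bins shifted by 500 bases 6 bins were higher at 21 nt. The cause was not tested for these.

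The share of 21 nt, −1.52 percentage points in rdr6 minus Col-0, was −1.24 in collapsed sequences, −2.15 among all mapped reads of 20 to 25 nt and −0.678 without TAS and miRNA genes. The share of 22 nt, −0.209 points, was −0.155 without these genes. The share of 24 nt, 1.70 points, was 2.59 among all mapped reads of 20 to 25 nt and 0.710 without these genes. Under the other alternatives every count stayed within 1.5 times its value. Of 98 listed-gene results, 97 kept direction and call with scaling by all mapped reads, 97 by the median ratio, 97 with divided reads and 88 with collapsed sequences. The exception with divided reads was IRT1 at 22 nt, whose log2 ratio turned to 0.12.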

Other observations

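Some loci, chosen after their values were seen, were lower by nearly the same factor at 21, 22 and 24 nt. AT1G13760 had 52 reads of 21 nt in rdr6 and 166 in Col-0 (log2 −1.83), 67 and 230 of 22 nt (log2 −1.94), and 768 and 2419 of 24 nt (log2 −1.81). The noncoding gene AT4G26255 had log2 ratios of −1.36, −1.10 and −1.36 at 21, 22 and 24 nt. In these genes 24-nt reads outnumbered the shorter ones in both libraries, unlike the TAS and PPR genes.

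The first base of the reads differed little between the libraries. Among 21-nt reads, U was the 5′ base of 34.7% in rdr6 and 38.0% in Col-0. Outside TAS and miRNA genes it was 25.4% in rdr6 and 24.1% in Col-0. Among 24-nt reads, A was the 5′ base of 51.0% in rdr6 and 51.2% in Col-0.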
